A study of Gallus gallus with 6 samples.

Results

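The mitosis genes described here encode the machinery that condenses, aligns and separates chromosomes and then cuts the cell in 2. The list held 35 gene symbols. A gene was taken up when at least 1 probe set of the array carried its symbol and no other, and it was represented by its probe set with the highest mean signal, with no limit on signal. 31 of the 35 were found, of 13009 genes with a probe set of their own, and they had 59 probe sets in all. AURKA, CENPA, NCAPH and CCNB2 had none under those symbols and were not analysed here. The gene table of RefSeq lists CCNB2 as another name of CCNB1 (gene ID 415400), which has a probe set and is described below outside the count of members.

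Whole-ovary RNA of 6 hens (Gallus gallus) was read on Affymetrix chicken arrays, 1 array per hen. For each transcript an array holds a probe set, several short DNA probes whose combined brightness is the signal. 3 hens had ovarian tumours (hens 4, LB11 and LB14, disease state cancer), either restricted to the ovary or with seeding of the abdomen. The other 3 (hens LB3, LB22 and 36, disease state Normal) showed no cancer by eye or under the microscope. The design text gives age and laying status as the features on which hens were matched. No strain, age in weeks or stage per tumour was used here.

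Mitosis genes are switched on together late in the cell cycle, under the transcription factor FOXM1 and related activators, and their products are removed as the cell divides. Kinases and cyclins start the division, kinetochore proteins tie chromosomes to the spindle, a checkpoint waits until all are attached, and midzone proteins place the cleavage furrow. In a laying hen's ovary the follicle's granulosa cells divide as follicles grow, and in tumours these genes are widely read as a sign of dividing cells. The roles named below are known mostly from human and other model cells.

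Each array had a trimmed mean signal of 500.1, so the arrays shared a scale, and 23063 probe sets with a mean signal of at least 66.9 were tested. All 31 members passed that limit, with mean signals from 205.8 for CENPF to 12137 for TPX2. The granulosa markers AMH and FOXL2 were bright on every array, with signals of at least 5317 and 4913. AMH read 8519, 9929 and 5317 in tumours 4, LB11 and LB14. In normal hens LB3, LB22 and 36 it read 14502, 15508 and 16132, so the groups did not overlap. FOXL2 had means of 8301 in tumours and 11211 in normal ovaries, with overlap. CYP19A1, the next brightest follicle marker, read 840 in tumour 4, 6073 in LB11 and 3988 in LB14. In normal hens LB3, LB22 and 36 it read 11501, 14094.5 and 13178. The sum of 16 follicle markers lay between 17959 and 34997 in tumours and between 53260.1 and 75505 in normal ovaries. Of the 16, 2 (ZP3 and UMOD) were lower past the threshold, against 0.0434% of all tested probe sets. Markers of the oviduct's secretory cells summed to between 60459 and 103927 in tumours and to between 783 and 2113 in normal ovaries. Of these markers, 8 of 10 were higher past the threshold, against 0.234% of all tested probe sets. Both marker lists were chosen with earlier results of these data known. In RNA of a whole organ, fewer cells of a type and less RNA per cell cannot be told apart.

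No mitosis gene was higher in the tumours past the test. With limma, at a Benjamini-Hochberg adjusted p under 0.05 over all tested probe sets, 0 of 31 members were higher and 0 were lower, where 0.234% of all tested probe sets were called higher and 0.0434% lower. 27 of the 31 had a negative difference (cancer minus normal on the log2(signal + 16) scale), and the median member difference was −0.26, a change in signal of −16.3%. Over all tested probe sets the median difference was −0.0039, with 11652 of 23063 negative. Over all tested genes, 1 probe set each as for the members, it was −0.017, with 5562 of 10671 negative. The lowest adjusted p of a member was 0.205, for SMC4.

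At an unadjusted limma p under 0.05, 6 of 31 members were lower (SMC4, PRC1, BIRC5, CENPF, KIF20A and CENPE), or 19.4%, and 0 were higher. Of all tested probe sets 5.01% were lower and 5.06% higher at that level. All 3 tumours lay below all 3 normal ovaries in 6 members (SMC4, PRC1, BIRC5, CENPF, PLK4 and MAD2L1), again 19.4%, against 8.03% of all tested probe sets. No member had all tumours above all normal ovaries, against 7.45% of all. Among 10671 tested genes, 1 probe set each as for the members, 617 were lower and 596 higher at an unadjusted limma p under 0.05. All tumours lay below all normal ovaries in 1004 of these genes and above them in 855. Single hens moved the member counts, and the shares of all tested probe sets moved too. The shares without overlap rose when a hen was left out, since 2 hens separate from 3 more easily. At an unadjusted limma p under 0.05 the share lower went both ways, from 2.46% without hen 36 to 6.36% without tumour 4. Without normal hen LB3, 10 of 31 members (32.3%) were lower at an unadjusted limma p under 0.05, against 4.55% of all tested probe sets. Without hen LB22 it was 3 members (9.68%), against 2.71% of all, and without hen 36 it was 2 (6.45%), against 2.46%. All tumours lay below the remaining normal hens in 16 members (51.6%) without hen LB3, where 14.2% of all tested probe sets did. Without tumour LB11 it was 11 members (35.5%), against 13.6% of all. It was 9 members (29.0%) without tumour 4, against 15.1%, and 8 (25.8%) without tumour LB14, against 14.1%. Without hen LB22 and without hen 36 it stayed at 6 (19.4%), against 11% and 11.4% of all. The 95% limma intervals, which are not adjusted for the number of genes, lay below a doubling in 30 of 31 members and below a 1.5-fold rise in 29. NUF2 and TTK were the exceptions. These counts are for the brightest probe set of each gene. A dimmer probe set of KIF20A had an interval of −0.18 to 1.29 on the log2 scale, which passed a doubling. The intervals of 12 members reached a halving.

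**Figure D1:**
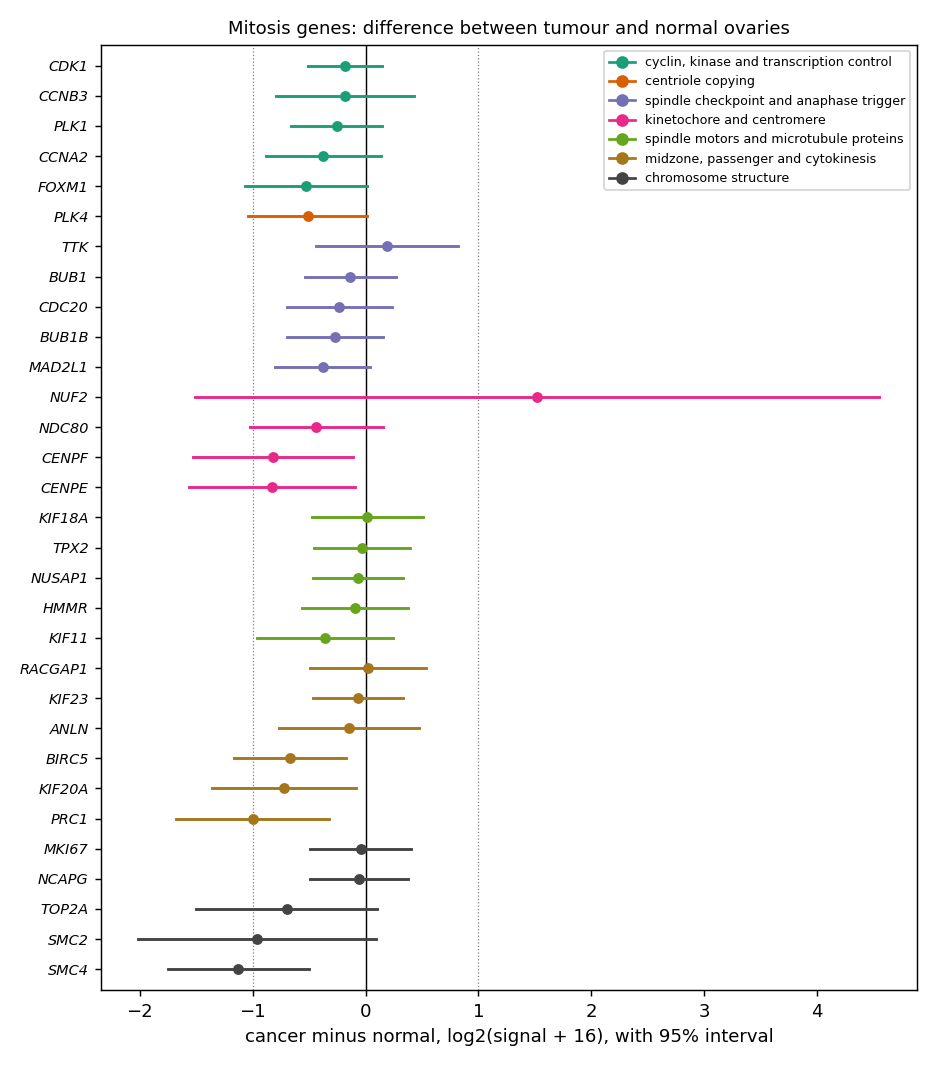
Difference between tumour and normal ovaries for each of the 31 mitosis genes on the log2(signal + 16) scale (points), with 95% limma intervals (lines, n = 3 hens per group), coloured by role; dotted lines mark a doubling and a halving. Points lie left of 0 for 27 genes, and the interval of NUF2 is far wider than the others.

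Genes of chromosome structure held the most negative difference. SMC4, a core ATPase of condensin, the ring that compacts mitotic chromosomes, had signals of 1674, 855 and 1203 in tumours 4, LB11 and LB14. In normal ovaries LB3, LB22 and 36 they were 2083, 3293 and 2662. Every tumour was below every normal ovary, and the difference was −1.12 (SE 0.27, 95% interval −1.75 to −0.50, limma adjusted p = 0.205). SMC2, the partner of SMC4 in the same ring, had tumour signals of 418, 361 and 925, in the same order of hens. Normal signals were 511, 1343 and 1554. The groups overlapped, since tumour LB14 lay above normal hen LB3, and the difference was −0.96 (SE 0.47, adjusted p = 0.547).

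TOP2A, the topoisomerase that untangles sister chromosomes, gave tumour signals of 506, 453 and 549. The normal signals were 442, 1005 and 1246, so hen LB3 was the lowest of all 6 and the other 2 normal hens were the highest. The difference was −0.70 (SE 0.35, limma adjusted p = 0.569), and it was −1.13 without hen LB3 (adjusted p = 0.184). A second TOP2A probe set had the same split among normal hens (309.7 in LB3, 1009 in LB22 and 1037 in 36) and a difference of −1.26 (SE 0.48, adjusted p = 0.41). NCAPG, a further condensin subunit, differed by −0.06 (SE 0.19), with tumour LB11 the highest of all 6 hens.

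MKI67 encodes Ki-67, the protein that coats mitotic chromosomes and the usual marker of dividing cells in tumour pathology. Its signals were 2172, 2577 and 3014 in tumours 4, LB11 and LB14 and 2407, 2407 and 3189 in normal hens LB3, LB22 and 36. The groups covered almost the same range. The difference was −0.04 (SE 0.20, 95% interval −0.49 to 0.40, limma adjusted p = 0.968), and it was positive when tumour 4 or normal hen 36 was left out.

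**Figure D2:**
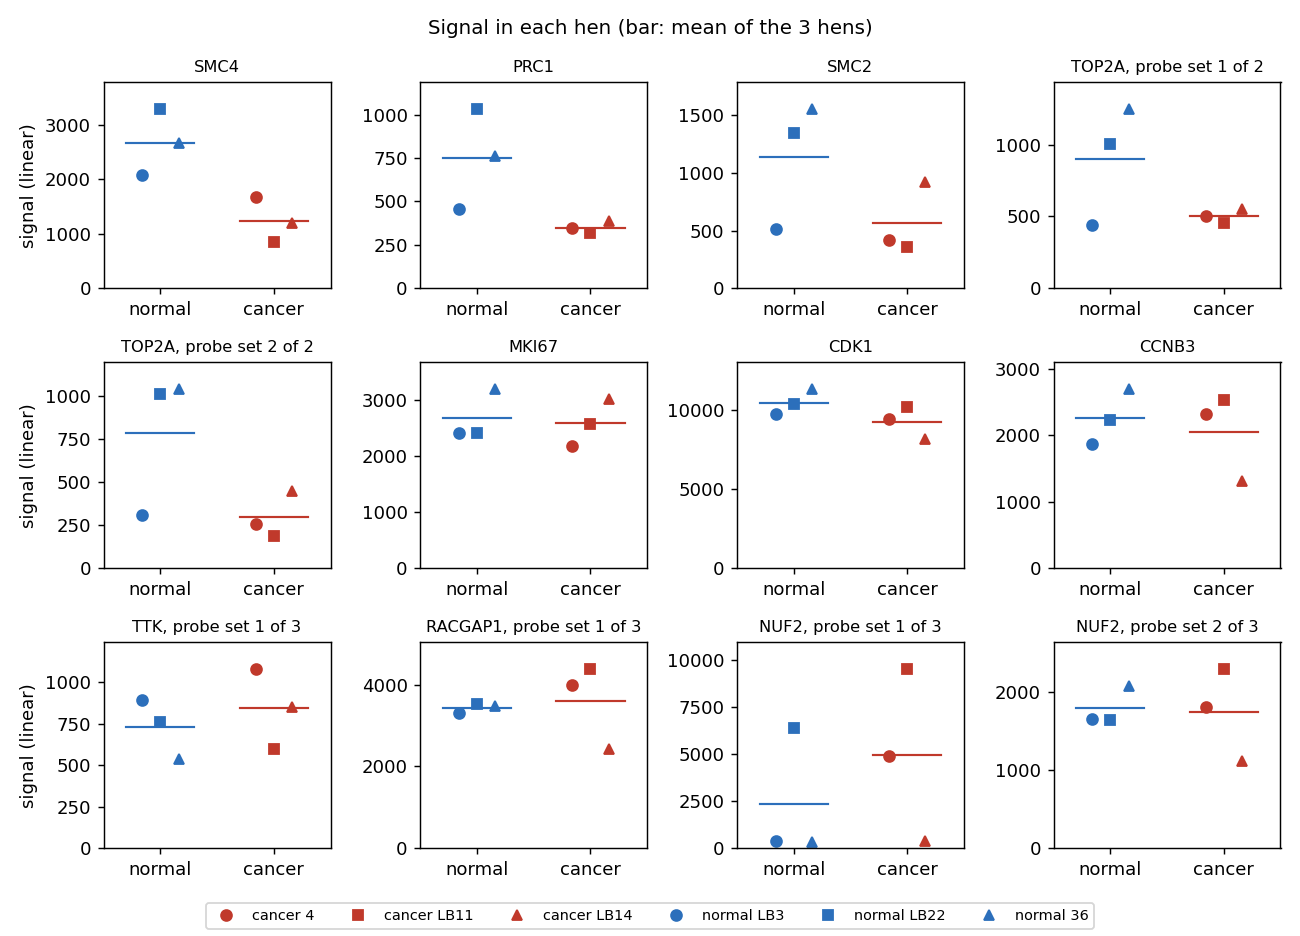
Linear signal in each hen (marker shapes name the hen; horizontal bars are means of the 3 hens) for 10 mitosis genes, with second probe sets for TOP2A and NUF2. SMC4 and PRC1 show no overlap between the groups, whereas the first NUF2 probe set splits both groups into bright and dim hens.

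The kinases, cyclins and the transcription factor that start mitosis had small negative differences in all 5 members, from −0.52 to −0.18. CDK1, the kinase that drives entry into mitosis, had signals of 9393, 10163 and 8135 in tumours 4, LB11 and LB14. They were 9697, 10353 and 11283 in normal hens LB3, LB22 and 36. The groups overlapped through tumour LB11, and the difference was −0.18 (SE 0.14, 95% interval −0.51 to 0.14, limma adjusted p = 0.754).

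CCNB3, a B-type cyclin of CDK1, read 2323, 2531 and 1304 in the tumours and 1869, 2230.1 and 2693 in the normal ovaries. Tumour LB14 was the lowest of the 6 hens and the others overlapped, for a difference of −0.18 (SE 0.27, adjusted p = 0.883). It turned to 0.11 without tumour LB14. CCNB1, the cyclin that RefSeq also lists as CCNB2, differed by −0.28 (SE 0.16, adjusted p = 0.636). All 3 tumours (19491, 20764 and 14085) lay below the normal hens (21009.6, 23221 and 20925), with tumour LB11 only just below hen 36.

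CCNA2, the A-type cyclin of S phase and early mitosis, had a mean signal of 2242 ± 400.2 in tumours and 2932 ± 656 in normal ovaries (SD, n = 3 each). PLK1, a kinase of centrosomes and kinetochores, had means of 3859 ± 681 and 4578 ± 429. FOXM1, which switches on many of these genes, had means of 467 ± 33.2 and 694 ± 172, with the tumours close together and the normal hens spread from 496 in LB3 to 805 in LB22. PLK4, the kinase that starts centriole copying, was without overlap, at 293 ± 27.5 against 430.4 ± 94.8, and its adjusted p was 0.513.

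The spindle checkpoint holds back anaphase until each chromosome is attached, and CDC20 then activates the ubiquitin ligase that starts it. MAD2L1, which binds and restrains CDC20, was without overlap: the tumours read 8597, 9649 and 6073 and the normal hens 9821, 10943 and 10326. The difference was −0.38 (SE 0.19, limma adjusted p = 0.548). CDC20 itself had means of 7409 ± 1896 and 8529.6 ± 808 (SD, n = 3 each) and the checkpoint kinase BUB1 1857 ± 151 and 2045 ± 264. BUB1B, also known as BUBR1, had means of 3526 ± 565 and 4259.8 ± 622. Their differences were −0.23, −0.13 and −0.27.

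TTK, the kinase at the top of the checkpoint, was the only one of the 5 with a positive difference. Its signals were 1078, 597 and 851 in tumours and 895, 759.8 and 539 in normal ovaries, so the hens were interleaved. The difference was 0.19 (SE 0.28, limma adjusted p = 0.881), and its 2 dimmer probe sets gave −0.22 and −0.20. Of the 5 genes, all but MAD2L1 had overlapping groups.

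At the kinetochore, CENPE, the motor that carries chromosomes to the spindle equator, had tumour signals of 316, 193 and 277. The normal signals were 298, 659 and 519.6, and tumour 4 lay above hen LB3. The difference was −0.83 (SE 0.32, limma adjusted p = 0.422), close to the −0.86 of its other probe set. CENPF, a large protein of the outer kinetochore, was dim, at 148, 161 and 114 in tumours against 256, 175 and 382 in normal hens. Its groups did not overlap and the difference was −0.82 (SE 0.31, adjusted p = 0.414). A second probe set of CENPF gave −0.70 and the next one 0.06, with hen 36 the highest in the brightest probe set and the lowest in this last one. NDC80, the microtubule anchor of the kinetochore, had means of 1203 ± 475 and 1559 ± 84.6 (SD, n = 3 each), with tumour LB14 above all normal hens.

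NUF2, the protein that pairs with NDC80 in the same complex, had the largest positive difference and the least certain one. On its brightest probe set, tumours 4 and LB11 read 4924 and 9526 while tumour LB14 read 377. Among normal hens LB22 read 6418, whereas LB3 and 36 read 358 and 310.2. Bright and dim hens were thus found in both groups, and the difference of 1.52 had an SE of 1.34 (limma adjusted p = 0.78). The second probe set of NUF2 read 1809.8, 2294.5 and 1117 in tumours 4, LB11 and LB14 and 1654, 1645 and 2075 in normal hens LB3, LB22 and 36. It did not repeat the split, and its difference was −0.09 (SE 0.27). Only 3 of 23063 tested probe sets had a gap of at least 3 on the log2 scale between the 3 dimmer and the 3 brighter hens without following disease state. The probe set of NUF2 was 1 of them, with a gap of 3.65, and this count was chosen after its values were seen.

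The spindle motors and microtubule proteins had the smallest differences. TPX2, which seeds microtubules around chromosomes, had means of 12131 ± 3187 in tumours and 12144 ± 662 in normal ovaries (SD, n = 3 each) and a difference of −0.03. NUSAP1, a microtubule bundling protein, differed by −0.07, HMMR, a spindle protein that is also a hyaluronan receptor, by −0.09, and KIF18A, a motor that steadies chromosomes at the equator, by 0.02. KIF11, the motor that pushes the spindle poles apart, differed by −0.36 (SE 0.27), with tumour LB14 at 1404 and the other 5 hens between 2656 and 2996. A dimmer probe set of TPX2 did not follow the bright one: it read 731, 579 and 994 in tumours and 921, 1633 and 1923 in normal hens LB3, LB22 and 36, a difference of −0.91 (SE 0.31, limma adjusted p = 0.353).

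PRC1, which bundles the overlapping microtubules of the midzone, led the genes of the final cut. It read 344, 316 and 386 in tumours 4, LB11 and LB14 and 454, 1031 and 764 in normal hens LB3, LB22 and 36. The groups did not overlap, hen LB3 was the nearest normal hen to the tumours, and the difference was −1.0 (SE 0.30, 95% interval −1.68 to −0.32, limma adjusted p = 0.282). BIRC5, survivin, a subunit of the chromosomal passenger complex, was also without overlap, at 778, 932 and 915 against 1085, 1708 and 1471. Its difference was −0.67 (SE 0.22, adjusted p = 0.328).

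KIF20A, a midzone motor, had tumour signals of 559.9, 452 and 430.4 and normal signals of 523, 936 and 1031, and its difference was −0.72 (SE 0.28, limma adjusted p = 0.421). Its dimmer probe set, however, gave 0.55 (SE 0.33, adjusted p = 0.64). KIF23 and RACGAP1, the motor and the signalling subunit of centralspindlin, which calls up the cleavage furrow, had differences of −0.07 and 0.02. RACGAP1 read 3977, 4374 and 2419.7 in tumours and 3303, 3515 and 3474 in normal ovaries, so tumours lay on both sides of the normal hens. ANLN, the scaffold of the contractile ring, differed by −0.14 (SE 0.27).

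**Figure D3:**
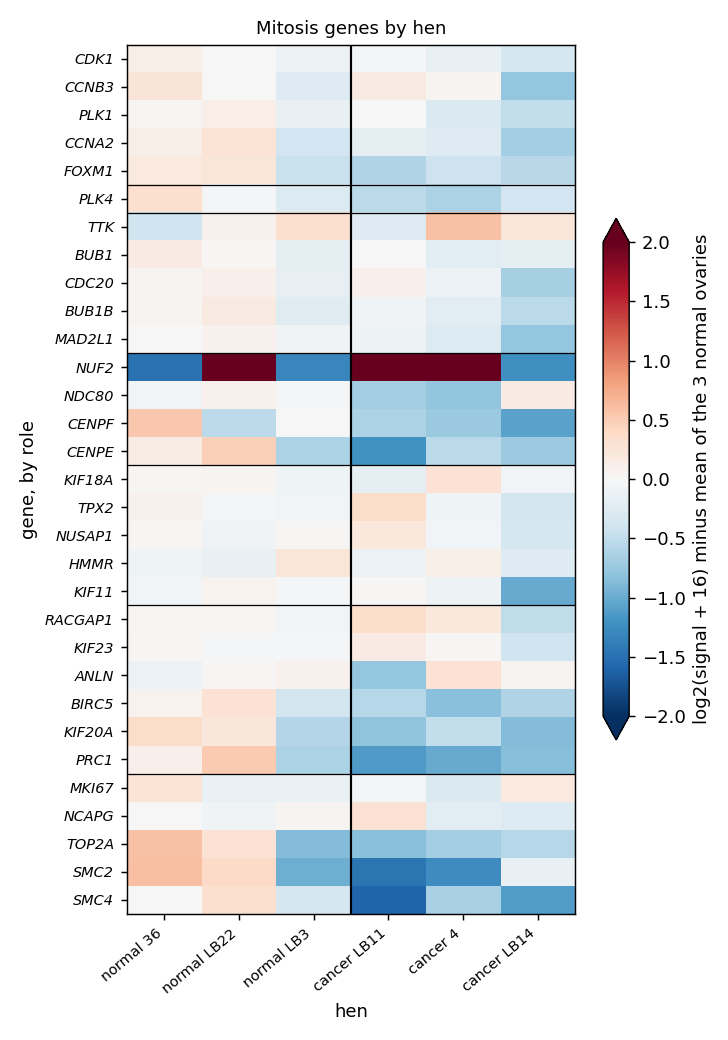
Signal of each of the 31 mitosis genes in each hen, as log2(signal + 16) minus the mean of the 3 normal ovaries (colour scale from −2 to 2, values beyond it in the end colours), with rows grouped by role. Blue is most frequent in the tumour LB14 column, and the normal hen LB3 column is paler or bluer than those of the other 2 normal hens.

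The hens differed among themselves within each group. Relative to the normal mean of each gene, the median over the 31 members was −0.50 in tumour LB14, −0.21 in tumour 4 and −0.12 in tumour LB11. It was −0.14 in normal hen LB3, 0.08 in LB22 and 0.05 in 36. Tumour LB11 thus lay on the level of normal hen LB3, and the groups overlapped in this summary. The same median over all tested probe sets lay between −0.01 and 0.03 in every hen.

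Tumour LB14 was the lowest of the 6 hens in 16 of 31 members, and in 25.7% of all tested probe sets. Of the 5 members in the group of chromosome structure, however, LB14 was the highest tumour in 3 (TOP2A, SMC2 and MKI67). Tumour LB11 was the highest tumour in 17 members. The share of all tested probe sets with a given tumour as the highest of the 3 was not counted. LB11 was the highest of all 6 hens in 6 members, and in 18.7% of all tested probe sets. LB14 was the highest of all 6 in 1 member, and in 23.9% of all. Among normal ovaries LB3 was the lowest in 21 of 31 members, and in 32.2% of all tested probe sets. The median SD of a member was 0.28 among tumours and 0.22 among normal ovaries on the log2 scale, and over all tested probe sets it was 0.34 and 0.22.

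The summed signal of the follicle markers was 17959 in tumour LB14, 22540.1 in tumour 4 and 34997 in tumour LB11. In normal ovaries it was 53260.1 in LB3, 68502 in LB22 and 75505 in 36. The sum is weighted toward its brightest markers, AMH, FOXL2 and CYP19A1, and single markers had different orders. Among tumours, AMH and FOXL2 were lowest in LB14, but CYP19A1, CYP17A1, CYP11A1, STAR and HSD3B1 were lowest in tumour 4. INHA, INHBA and UMOD were lowest in LB11. Tumour LB14 and normal hen LB3 were the lowest of their groups both in this sum and in the member median. The same 2 hens were the lowest of their groups in the sum of endothelial markers, at 4883 and 6964. In no other marker sum were both of these hens the lowest of their groups. Tumour 4 was the lowest tumour in the oviduct, leukocyte, smooth muscle, fibroblast and red cell sums, and tumour LB11 in the epithelial sum. In the germ cell sum the tumours had the same order as in the follicle sum, with LB14 the lowest. Hen LB3 was the lowest normal hen for smooth muscle, fibroblast and red cell markers. It was the highest for oviduct, leukocyte and germ cell markers. Of the 16 follicle markers 15 had a negative difference, with a median of −1.91 (range −3.52 to 0.78), and 14 of the 16 had no overlap between the groups. Of the list, the dimmest in tumours, INHA, read 33.1, 24.1 and 51.97 there. Their part in the member differences was not tested. Leukocyte markers, another source of dividing cells, summed to between 28639 and 56127 in tumours and between 37718 and 62680 in normal ovaries, so the groups overlapped. 0 of 11 tested leukocyte markers passed in either direction, and 0 had an unadjusted limma p under 0.05. Germ cell markers summed to between 13137 and 30155 in tumours and 18424 and 22281 in normal ovaries, with 0 of 11 tested past the threshold. Epithelial markers summed to between 23395 and 54353 in tumours and between 16633 and 19628 in normal ovaries, without overlap. All 8 of them had a positive difference (median 0.66), and CDH1 and CLDN3 were higher past the limma threshold. Endothelial markers had a negative difference in 7 of 9 (median −0.53), with 3 free of overlap and 0 past the threshold, and 2 were lower at an unadjusted p under 0.05. Their sums ran from 4883 to 7409 in tumours and from 6964 to 8018 in normal ovaries. Fibroblast and matrix markers were negative in 9 of 12 (median −0.41), again with 3 free of overlap and 0 past the threshold, and 1 was lower at an unadjusted p under 0.05. They summed to between 40314 and 114966 in tumours and between 95981 and 128905 in normal ovaries. Smooth muscle and red cell sums overlapped, with 0 markers past the threshold, and 1 smooth muscle marker was higher at an unadjusted p under 0.05. Over all tested probe sets, 8.03% were lower without overlap. Those lower at an unadjusted limma p under 0.05 were 5.01% of all, and those higher 5.06%. The part of these cell types in the member differences was not tested.

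As a measure of RNA quality, actin and GAPDH control probes at the 3' end were compared with those at the 5' end, and the log2 ratio was 0.14 ± 0.07 in tumours and 0.11 ± 0.11 in normal ovaries (SD, n = 3). A two-sided exact permutation test gave p = 0.8, and this design cannot go below 0.1.

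The size of a member's difference went with the brightness of its probe set. A mean signal of 2000 was chosen after the values were seen to describe this. Above it, 15 members had a median difference of −0.18, and 0 of them were below −0.5. At or below it, 16 members had a median of −0.60, and 10 of them were below −0.5. SMC4, the most negative member, lay just under the line, with a mean signal of 1962, so these counts depend on where it was put. The mean signal includes the tumours, so a lower tumour signal also moves a member toward the dim side. Over 30 members, NUF2 left out, mean signal and difference had a Spearman correlation of 0.47 (Pearson r of 0.47 with log2 signal), given as a description across genes that share the same 6 arrays. Over all tested probe sets the Spearman correlation was −0.11, and the 3406 probe sets above 2000 had a median difference of −0.04. Both orders occurred within a gene. The dimmer probe set was less negative for KIF11 (−0.24, against −0.36) and more negative for TOP2A (−1.26, against −0.70).

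**Figure D4:**
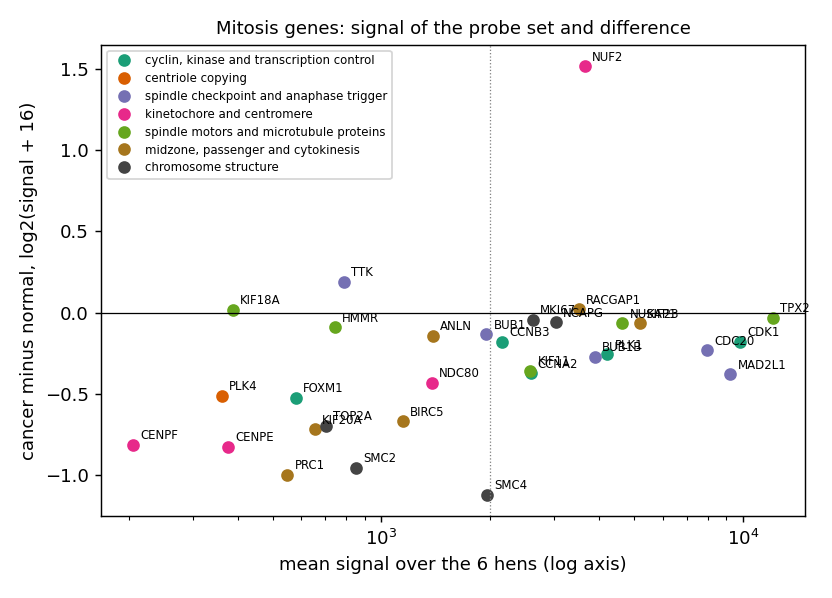
Mean signal of each member's probe set over the 6 hens (horizontal, log axis) against its difference between tumours and normal ovaries (vertical, log2(signal + 16)), coloured by role, with a dotted line at a signal of 2000. Members below −0.5 all lie left of the line, SMC4 just left of it.

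16 members had at least 2 tested probe sets. In 10 of them all tested probe sets had the same sign, and in 6 they did not. Of the 52 tested probe sets of members, 43 had a negative difference and 0 passed the limma threshold. 7 probe sets were too dim to be tested. 11 members were represented by a probe set of the kind whose probes can match transcripts of more than 1 gene (suffix s_at), SMC4, FOXM1, PLK4 and CENPF among them.

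Other genes of mitosis also had mostly negative differences. Of 81 further mitosis genes with a probe set, 79 were tested with limma: 0 were higher and 0 lower past the threshold, 63 had a negative difference, and the median was −0.17. At an unadjusted p under 0.05, 11 of the 79 were lower and 0 higher, against 5.01% and 5.06% of all tested probe sets. CENPO, a protein of the inner kinetochore, had the lowest p, with tumour signals of 565, 604 and 709.7 against 1084, 1572 and 2708 and a difference of −1.39 (SE 0.31, adjusted p = 0.165). SPAG5, or astrin, a spindle pole protein, differed by −1.06 (SE 0.24) and KIF14, a motor of cytokinesis, by −0.87 (SE 0.28), both without overlap. The lowest p among positive values belonged to NCAPH2 of condensin II (0.56, SE 0.46), the midbody protein gene CEP55 (0.27, SE 0.23) and CENPP of the inner kinetochore (0.14, SE 0.20). NCAPH2 was dim, and its difference rested on normal hen LB3, which read 24.0 while all other hens lay between 107 and 128.

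Genes of S phase, which comes earlier in the cell cycle than mitosis, had negative differences in 22 of 27 tested members. Their median was −0.31, with 0 past the limma threshold in either direction. At an unadjusted p under 0.05, 9 of the 27 were lower and 0 higher, against 5.01% and 5.06% of all tested probe sets. DTL, which marks replication factors for destruction, differed by −1.14 (SE 0.25, adjusted p = 0.154) and MCM2, a subunit of the replicative helicase, by −1.0 (SE 0.24, adjusted p = 0.192). Genes that restrain the cell cycle had a median of 0.06 over 13 tested members, with 7 positive and 0 past the threshold or at an unadjusted p under 0.05. CDKN1B, the CDK inhibitor p27, differed by 0.35 (SE 0.16, adjusted p = 0.518) and RBL2, a pocket protein of the quiescent cell, by 0.44 (SE 0.24, adjusted p = 0.592). For both, the lowest tumour lay above the highest normal hen, which was so in 7.45% of all tested probe sets. Of the 13, 6 had negative differences, down to −0.59 for CDKN2B (SE 0.62, limma adjusted p = 0.823). Whether the lists differ from each other was not tested.

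**Figure D5:**
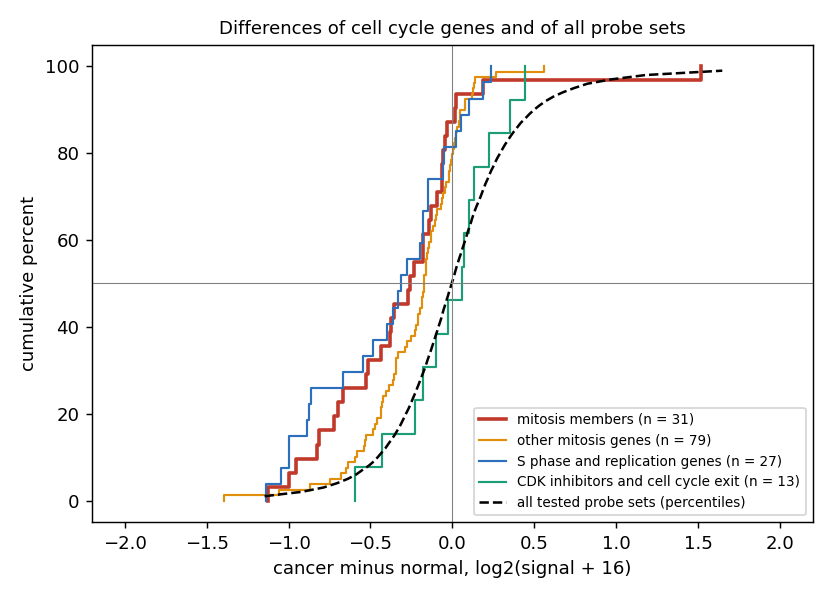
Cumulative percent of genes (vertical) up to a given difference between tumours and normal ovaries (horizontal, log2(signal + 16)) for the 31 mitosis genes, 79 other mitosis genes, 27 S phase genes and 13 genes that restrain the cell cycle, with the percentiles of all 23063 tested probe sets dashed. The mitosis and S phase curves cross 50% left of 0, at −0.26 and −0.31, while all probe sets cross it at 0.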

How the data were processed

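Total RNA of 3 cancer and 3 normal ovaries was labelled with biotin and hybridised, per the labels' protocols. The deposited values are linear signal intensities. The submitters' processing notes name GCOS, Affymetrix's own software, without a version or settings. No 2 arrays were identical. Of 38535 probe sets, 27178 had 1 gene symbol in the platform's annotation, 177 several and 11180 none. Probe sets at or above the 40th percentile of mean signal (66.9) were kept, 96 controls were left out, and log2(signal + 16) was compared with limma 3.58.1 in R 4.3.3 (two-sided, eBayes with trend, p-values adjusted by Benjamini-Hochberg over the 23063 tested probe sets). A difference on that scale understates changes of dim genes. Precision is limited by having 3 hens in each group. The limma step was tested on simulated data.

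Members and gene lists were chosen with earlier results of these data known. Listed genes were matched by the platform's symbol, 1 probe set per gene, the one with the highest mean signal. Every member is named. Values in all hens go to MKI67, TOP2A, CDK1, CCNB3, the 3 members at each end of the differences and the lowest p per direction. Others given in full, such as CENPE, CENPF, BIRC5, KIF20A and MAD2L1, were chosen after their values were seen. Further lists follow the lowest p. Marker signals were summed per hen. Alternatives covered pseudocounts of 1 and 64, no filter and a 60th percentile filter, 2 other scalings, other variance models, array weights, the LB prefix of some titles (meaning not stated) as a block or those hens alone, each hen left out, and other probe sets of a gene. Sequences of the members were not used here.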

Additional observations from a re-analysis of the deposited data

How the results depend on the processing

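Under all 19 alternatives, 0 members and 0 of the other mitosis genes passed the limma threshold in either direction. The lowest adjusted p of a member was 0.0977 (SMC4, array weights). The member median stayed negative, between −0.37 and −0.14. Of 31 members 16 kept their sign in every alternative and 15 did not, with 38 sign changes among 574 member differences. The causes of these changes were not tested. No paired analysis was possible because the groups share no replicate numbers.

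Without the filter, 6 probe sets of the whole table were lower past the threshold. Without a trend, 35 were higher and 3 lower, and with array weights 21 were lower. Among the LB hens alone, 21 were higher and 1 lower, and with all probe sets of a gene averaged 30 were higher and 6 lower. With 1 hen left out, between 23 and 163 were higher and between 0 and 25 lower, and between 6 and 16 members had no overlap in either direction. All of these but 1 without LB14 and 1 without LB22 were lower, where between 11% and 15.1% of all tested probe sets were lower without overlap. The shares of all higher without overlap were 15% without LB14 and 9.92% without LB22. At an unadjusted limma p under 0.05, 1 member (3.23%) was higher without LB14, against 6.11% of all. Without LB22 it was also 1 (3.23%), against 3.09%. Among the LB hens alone, 2 against 2, 10 members had no overlap. Of these, 9 (29.0%) were lower, against 19.8% of all, and 1 (3.23%) was higher, against 19%. With the second brightest probe set, which 16 members had, 1 had no overlap (6.25%, against 8.03% of all). Among the LB hens alone, 1 member (3.23%) was lower at an unadjusted limma p under 0.05, against 3.55% of all. With the second brightest probe set 1 of 16 (6.25%) was lower at that level, against 5.01% of all.

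Signs changed as follows. KIF18A was −0.0079 under quantile normalization. With array weights KIF18A was −0.027, TPX2 0.065, NUSAP1 0.016, KIF23 0.0076 and NCAPG 0.039. Among the LB hens alone TTK was −0.21, KIF18A −0.10, TPX2 0.041, RACGAP1 −0.066, NCAPG 0.021 and MKI67 0.21. With probe sets averaged, MAD2L1 was 0.19, TTK −0.078 and RACGAP1 −0.0034. That average takes in probe sets too dim to be tested. The dim one of MAD2L1 had a mean signal of 20.3 and a difference of 0.77, and that of RACGAP1 58.0 and −0.07. With the second brightest probe set BUB1B was 0.015, TTK −0.22, NUF2 −0.093, TPX2 0.052 and KIF20A 0.55. With 1 hen left out, values ran from −0.36 to 0.11 for CCNB3, −0.011 to 0.41 for TTK, −0.12 to 0.12 for KIF18A, −0.23 to 0.14 for TPX2, −0.19 to 0.028 for HMMR and −0.20 to 0.075 for NUSAP1. They ran from −0.18 to 0.099 for KIF23, −0.14 to 0.28 for RACGAP1, −0.36 to 0.17 for ANLN, −0.24 to 0.046 for NCAPG and −0.16 to 0.091 for MKI67. NUF2 was 2.90 without tumour LB14, 2.92 without normal hen LB22 and 0.60 without tumour LB11.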
